A study of Mus musculus with 6 samples.

Results

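The guanylate-binding protein (GBP) family of the mouse was examined as the 10 genes *Gbp2* to *Gbp11*, found by name among the 56884 genes listed for every library. Of these 10 genes, 4 lie in a cluster on chromosome 3 and 6 in a cluster on chromosome 5, and the clusters are described apart. The cells were an immortalized line from the stromal vascular fraction (SVF) of mouse subcutaneous white adipose tissue (scWAT), the fraction that holds adipocyte precursors. They overexpressed PPARγ2 K382Q, in which glutamine resembles an acetylated lysine, or PPARγ2 K382R, in which arginine keeps the charge of a deacetylated lysine, from a retroviral vector under puromycin selection. Both lines kept the *Pparg* gene of the cells and received the same beige adipogenic medium, with isobutylmethylxanthine, indomethacin, dexamethasone, insulin, T3 and rosiglitazone, and RNA was taken at day 2. There were 3 biological replicates of each mutant, all from 1 line per mutant as far as the sources used here tell, so the p-values measure the spread between cultures of these lines. The aligned length of the libraries was 5.952 to 7.5 Gb in the former and 6.526 to 8.154 Gb in the latter. Below, the groups are called K382Q cells and K382R cells. The comparison asked how transcripts of the family differ between these substitutions, which stand in for the acetylation state of the residue. The 6 libraries included no cells with unmodified PPARγ2 or an empty vector. A fall or rise below is therefore the K382Q level relative to K382R and does not tell which group moved.

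GBPs are large GTPases of the dynamin superfamily that are among the most strongly induced products of interferon (IFN)-γ signaling and also respond to type I IFN. After IFN binds its receptor, transcription factors activated by JAK kinases bind gamma-activated sites, and complexes that contain IRF9, or IRF1 made in response, bind IFN-stimulated response elements in the promoters of these genes. The proteins gather on the membranes of intracellular pathogens and of the vacuoles around them, and they open the way to caspase-11 and other inflammasome responses. They are best known from macrophages, but fibroblasts and other cells of mesenchymal origin also make them after exposure to IFN.

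Promoter sequences are shown first because they hold the elements through which IFN is known to act on these genes. RefSeq promoter entries (GRCm38.p6, 250 bases before to 50 bases after the start) were found for 4 of the 10 members, the 4 genes on chromosome 3, with 5 starts in all. The 250 bases before the start of each gene are printed below from 5′ to 3′, with matches to the core of the IFN-stimulated response element or to the gamma-activated site in capitals.

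*Gbp5* (chr3:142496684-142496933, + strand): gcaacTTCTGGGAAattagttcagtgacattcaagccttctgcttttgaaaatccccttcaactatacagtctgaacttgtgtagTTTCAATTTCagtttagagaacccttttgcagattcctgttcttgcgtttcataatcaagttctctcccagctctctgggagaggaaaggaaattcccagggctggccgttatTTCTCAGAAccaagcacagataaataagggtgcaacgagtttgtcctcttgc

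*Gbp7* (chr3:142530086-142530335, + strand): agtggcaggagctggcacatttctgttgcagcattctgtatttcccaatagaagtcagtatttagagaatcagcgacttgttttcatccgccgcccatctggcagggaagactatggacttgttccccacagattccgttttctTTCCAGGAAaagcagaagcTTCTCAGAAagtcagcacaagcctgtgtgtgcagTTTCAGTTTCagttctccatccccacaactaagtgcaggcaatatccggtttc

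*Gbp3*, the first of its 2 starts (chr3:142559794-142560043, + strand): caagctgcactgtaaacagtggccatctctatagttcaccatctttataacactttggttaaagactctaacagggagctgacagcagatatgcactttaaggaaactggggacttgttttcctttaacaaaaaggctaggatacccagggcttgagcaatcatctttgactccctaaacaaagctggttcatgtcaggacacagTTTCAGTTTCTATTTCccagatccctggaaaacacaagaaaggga

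*Gbp2* (chr3:142620413-142620662, + strand): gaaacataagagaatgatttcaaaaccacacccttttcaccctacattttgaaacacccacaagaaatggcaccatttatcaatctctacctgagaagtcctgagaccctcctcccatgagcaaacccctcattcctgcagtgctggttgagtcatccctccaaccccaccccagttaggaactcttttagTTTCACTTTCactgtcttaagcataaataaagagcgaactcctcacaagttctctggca

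Each of these 4 promoters held the core of the response element, searched as GAAANNGAAA on both strands and seen here as TTTCNNTTTC. It began 45 bases before the start in *Gbp3*, 53 in *Gbp7*, 59 in *Gbp2* and 165 in *Gbp5*. In *Gbp3* a second core at -39 overlapped the first, and the other start of *Gbp3* had no match. The same core occurred in 3.44% of all 32851 mouse promoters of this length. Gamma-activated sites, searched as TTCNNNGAA, which reads the same on both strands, were present as 2 copies each in *Gbp5* (from -245 and -52) and *Gbp7* (from -106 and -87) and not in the windows of *Gbp3* and *Gbp2*, against 8.3% of all promoters with a match. The direct repeat bound by PPAR, searched as AGGTCANAGGTCA on both strands, matched in none of the 5 windows and in 0.0396% of all promoters. A match here is a run of letters, and binding was not measured.

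Transcripts of 9 of the 10 members were lower in K382Q cells than in K382R cells, and *Gbp8* was barely detected. Levels are given as TPM, the share of a gene among all transcripts of a library, corrected for transcript length and depth. The test, limma on log2(TPM + 0.5), covered the 15426 genes, 9 members among them, that reached a TPM of 0.5 in 3 or more of the 6 libraries, and p-values were adjusted over all of them by the method of Benjamini and Hochberg. All 9 passed an adjusted p of 0.05 as lower, where 36.9% of all genes tested were lower and 11.1% were higher. A fold change over 2 in addition, the threshold of the study for a differentially expressed gene (DEG), was met by 6 members as lower, all 4 on chromosome 3 (*Gbp2*, *Gbp3*, *Gbp5* and *Gbp7*) and 2 on chromosome 5 (*Gbp4* and *Gbp10*), where 2.61% of all genes tested were lower DEGs. Of these, *Gbp4* passed the filter only through the K382R libraries, the group in which it was higher. In the limma fit without a filter it had a log2 fold change of -1.11 (adjusted p = 0.00727). The 9 members also had every K382Q library below every K382R library, but so did 42.8% of all genes tested. Median log2 fold changes were -1.32 for the 4 members on chromosome 3 and -0.95 for the 5 tested on chromosome 5, and -0.14 for all genes tested. Median-ratio scaling, which sets the typical gene to no change, brought the last to 0.00386 and left the members between -1.66 and -0.72.

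**Figure D1:**
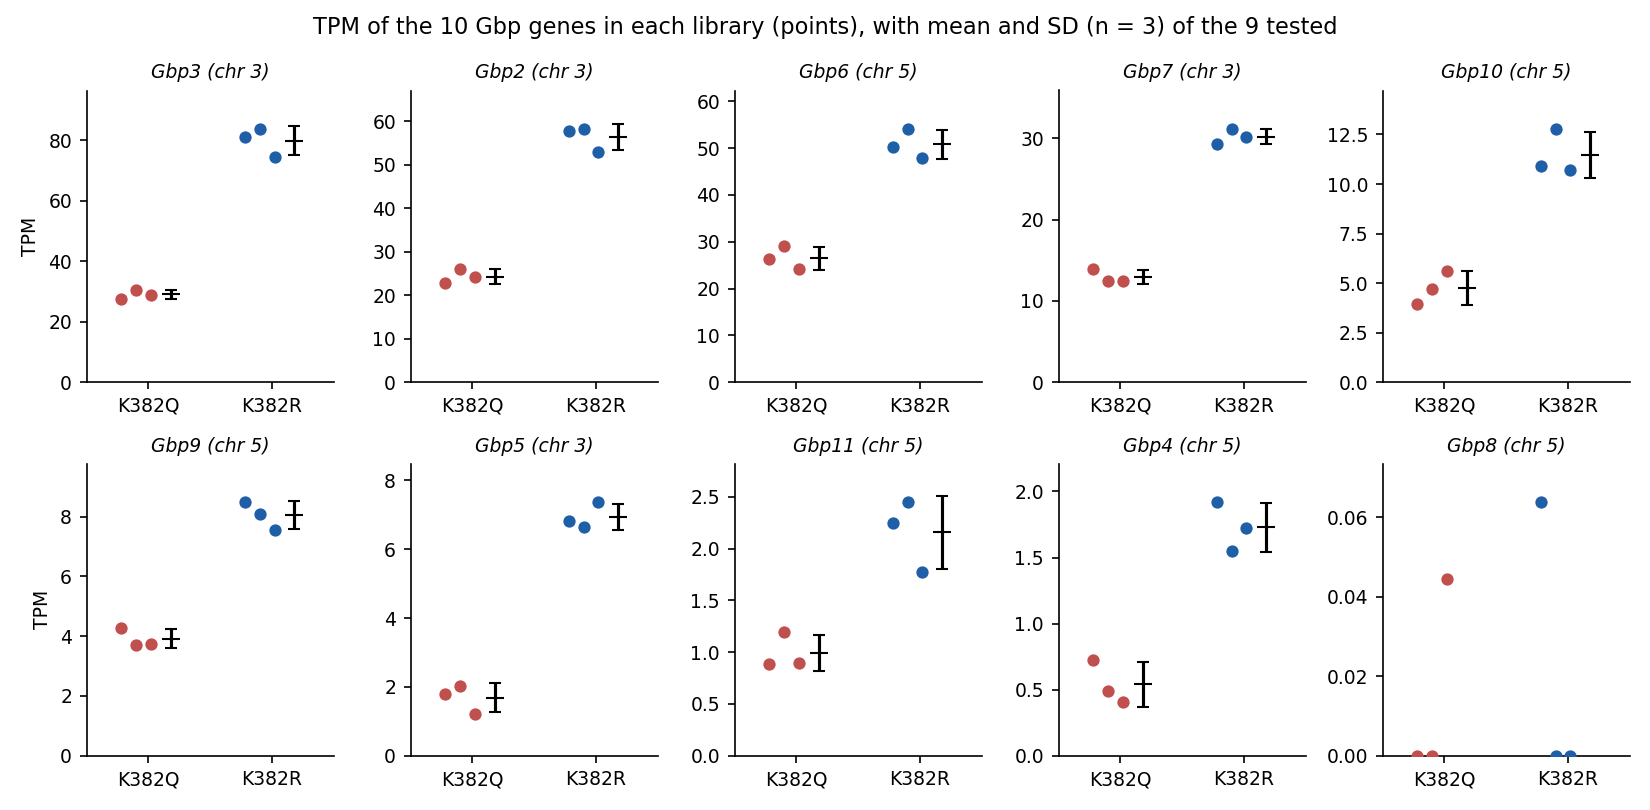
TPM (vertical axis, from 0) of each of the 10 Gbp genes in the 3 K382Q libraries (red) and the 3 K382R libraries (blue), with the mean and SD beside the points for the 9 genes tested. For 9 genes the red and blue points do not overlap, and *Gbp8* is listed at 0 in 4 of the 6 libraries.

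On chromosome 3 the members run in the order *Gbp5*, *Gbp7*, *Gbp3* and *Gbp2* along the plus strand. *Gbp3* (ENSMUSG00000028268.15, GRCm39 chromosome 3, 142265787 to 142278970) was the most abundant member by TPM. Its TPM was 27.6, 30.6 and 28.7 in K382Q cells and 81.1, 83.8 and 74.5 in K382R cells. All libraries of one mutant were thus separated from those of the other, and the mean in K382Q cells was 36.3% of that in K382R cells. The log2 fold change was -1.44 ± 0.0577 (standard error, SE, 95% interval -1.58 to -1.31, adjusted p = 1.86e-06).

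*Gbp5* (ENSMUSG00000105504.5, chromosome 3, 142199739 to 142228105), a member tied to activation of the NLRP3 inflammasome, showed the deepest fall of the family by TPM. Its TPM was 1.79, 2.03 and 1.21 in K382Q cells and 6.83, 6.64 and 7.37 in K382R cells. The highest K382Q library stood far below the lowest K382R library, and the mean in K382Q cells was 24.1% of that in K382R cells. On the log2(TPM + 0.5) scale the fold change was -1.79 ± 0.156 (SE, adjusted p = 6.47e-05), which ranked 63 from the lowest among all genes tested. Since the pseudocount understates the change of low genes, the log2 ratio of the group means without it was larger in size, at -2.05.

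*Gbp2* (ENSMUSG00000028270.13, chromosome 3, 142326363 to 142343769) encodes a GBP that is anchored to membranes by a prenyl group. Its TPM was 22.7, 26 and 24.1 in K382Q cells and 57.7, 58.3 and 52.9 in K382R cells. *Gbp7* (ENSMUSG00000040253.16, chromosome 3, 142236103 to 142255910) is a GBP described in the delivery of oxidative and autophagic defenses to vacuoles. Its TPM was 13.9, 12.4 and 12.4 in K382Q cells and 29.3, 31.2 and 30.1 in K382R cells. *Gbp2* and *Gbp7* fell by nearly the same amount, with log2 fold changes of -1.20 ± 0.0625 (SE, adjusted p = 5.47e-06) and -1.19 ± 0.0606 (SE, adjusted p = 4.77e-06).

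Within the same cluster, *Gbp2b* (chromosome 3, 142300608 to 142324940), the gene formerly called Gbp1 and no member of the set, lies between *Gbp3* and *Gbp2*. Its TPM was 2.80, 2.67 and 2.78 in K382Q cells and 4.61, 4.47 and 4.84 in K382R cells. It fell less than its neighbors, with a log2 fold change of -0.66 ± 0.093 (SE, adjusted p = 0.000738) and an interval that did not overlap those of the 4 members. In each library the ratio of *Gbp2* to *Gbp2b* was between 8.09 and 9.74 in K382Q cells and between 10.9 and 13.1 in K382R cells. An exact two-sided permutation test of this ratio gave p = 0.1, the smallest value that 3 against 3 libraries allow. The promoter of *Gbp2b* also holds the core of the response element, at -137, between the positions in *Gbp2* and *Gbp5*. The pseudogene *Gbp2-ps*, outside the cluster and 20.9 kb beyond its end, was listed at 0 in all 6 libraries.

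The chromosome 5 cluster runs on the minus strand, and 3 of its members (*Gbp8*, *Gbp9* and *Gbp4*) are annotated from nearly the same start. *Gbp6* (ENSMUSG00000104713.5, chromosome 5, 105418568 to 105441564) was its most abundant member. Its TPM was 26.3, 29.1 and 24.2 in K382Q cells and 50.2, 54.2 and 48 in K382R cells. The groups did not overlap, and the mean in K382Q cells was 52.2% of that in K382R cells. *Gbp6* passed the test but did not reach a fold change of 2, with a log2 fold change of -0.93 ± 0.0741 (SE, adjusted p = 4.25e-05).

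*Gbp10* (ENSMUSG00000105096.2, chromosome 5, 105363565 to 105387399), which shares more transcript sequence with *Gbp6* than with any other member, had a TPM of 3.92, 4.72 and 5.63 in K382Q cells and 10.9, 12.8 and 10.7 in K382R cells. Its log2 fold change was -1.20 ± 0.132 (SE, adjusted p = 0.000217). How reads were divided between these genes bears on their single values. Stretches of 150 bases, the read length, were taken from the GENCODE transcripts of each gene, and 54.6% of those of *Gbp10* and 47.8% of those of *Gbp6* also occurred in another gene. The third gene of this group is *Gm43302* (chromosome 5, 105362773 to 105441561), a gene model that spans both, with 97.6% of its stretches shared. *Gm43302* had a TPM of 10.8 ± 2.4 (SD, n = 3) in K382Q cells and 17.5 ± 1.25 (SD, n = 3) in K382R cells, and a log2 fold change of -0.69 ± 0.146 (SE, adjusted p = 0.00582). The sum of *Gbp6*, *Gbp10* and *Gm43302* is less sensitive to the division, though not free of it, since TPM depends on transcript length. It was 43.4, 44.6 and 38.2 TPM in K382Q cells and 79.2, 83.1 and 76.9 TPM in K382R cells. The summed level in K382Q cells was 52.8% of that in K382R cells, so the group as a whole was also lower, while the difference between *Gbp6* and *Gbp10* is uncertain.

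*Gbp9* (ENSMUSG00000029298.16, chromosome 5, 105225496 to 105287405) had a TPM of 4.29, 3.72 and 3.74 in K382Q cells and 8.49, 8.09 and 7.57 in K382R cells. The groups were separated, and the log2 fold change of -0.95 ± 0.0918 (SE, adjusted p = 0.000107) was not past 2-fold, whereas the log2 ratio of its means without a pseudocount was -1.04. *Gbp4* (ENSMUSG00000079363.8, chromosome 5, 105263633 to 105287452) was near the limit of the filter. It passed only through the K382R libraries, since K382Q replicates 2 and 3 lay below a TPM of 0.5, so its p-value is to be read with care. Its TPM was 0.726, 0.489 and 0.403 in K382Q cells and 1.92, 1.55 and 1.72 in K382R cells, again without overlap. The log2 fold change of *Gbp4* was -1.11 ± 0.178 (SE, adjusted p = 0.00143), but it depended on the pseudocount. It was -0.83 with a pseudocount of 1, -1.55 with 0.1, -0.70 with FPKM and -0.74 with coverage, so that the 2-fold threshold was not met in 3 of these, and the ratio of the means without a pseudocount was -1.68. *Gbp11* (ENSMUSG00000092021.10, chromosome 5, 105470908 to 105494338) is annotated as a transcribed pseudogene by RefSeq. Its TPM was 0.883, 1.19 and 0.896 in K382Q cells and 2.25, 2.45 and 1.77 in K382R cells. *Gbp11* passed the test, with a log2 fold change of -0.83 ± 0.165 (SE, adjusted p = 0.00425). Without a pseudocount the log2 ratio of its means was -1.12. *Gbp8* (ENSMUSG00000034438.17, chromosome 5, 105162016 to 105287406) did not pass the filter. It was listed at a TPM of 0.0445 in K382Q replicate 3 and 0.0638 in K382R replicate 1 and at 0 in the other 4 libraries, and was left out of the test. Apart from *Gbp6*, *Gbp10*, *Gbp7* (9.64%), *Gbp5* (5.28%) and *Gbp9* (1.11%), under 0.1% of the stretches of a member were shared with another gene.

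**Figure D2:**
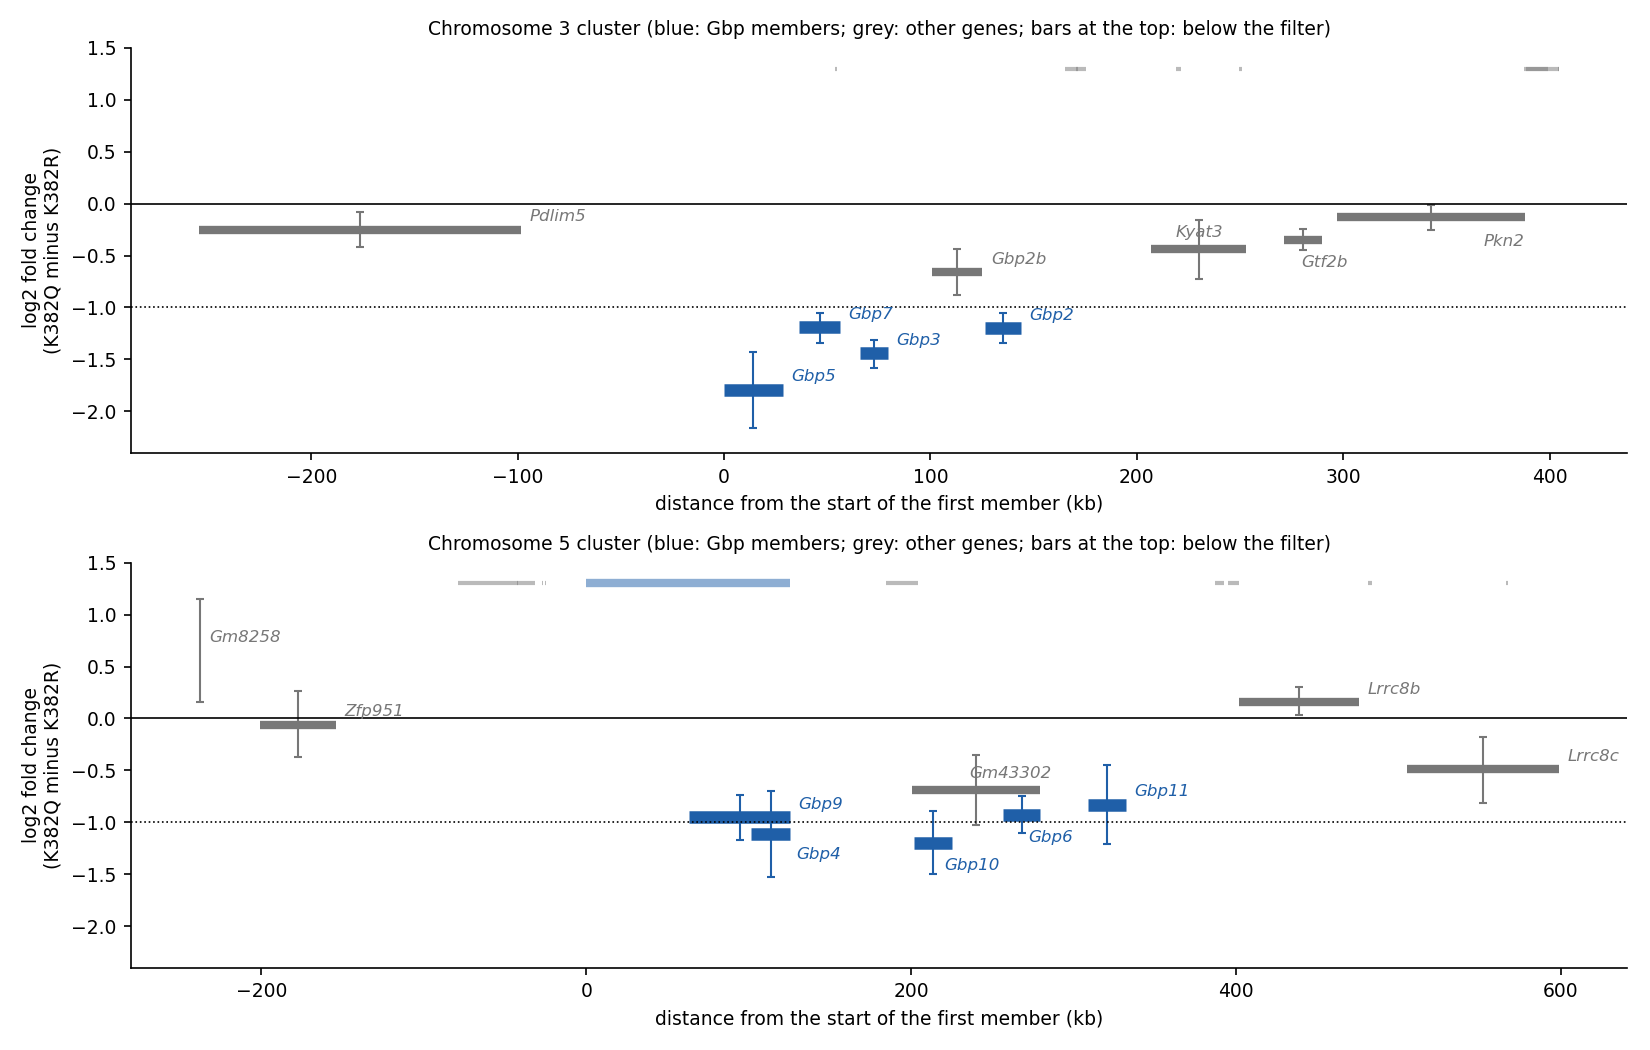
log2 fold change (K382Q minus K382R, vertical axis) with 95% interval of each gene tested in and around the clusters, against the distance in kb from the start of the first member, for chromosome 3 (top) and chromosome 5 (bottom). Horizontal bars span the annotated genes, the dotted line marks a 2-fold decrease, and the Gbp members (blue, -1.79 to -0.83) lie below all other genes tested there (grey).

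Summed over the members of a cluster, the chromosome 3 genes had a TPM of 66, 71.2 and 66.5 in K382Q cells and 175, 180 and 165 in K382R cells. The sum of the chromosome 5 genes was 36.1, 39.2 and 34.9 in K382Q cells and 73.7, 79.1 and 69.8 in K382R cells. Both sums were separated between the mutants, at 39.2% of the K382R level for chromosome 3 and 49.5% for chromosome 5, with log2 fold changes of -1.34 and -1.00 and an exact two-sided permutation p = 0.1 each. The clusters were also compared with each other within each library. The ratio of the chromosome 3 sum to the chromosome 5 sum was 1.83, 1.82 and 1.91 in K382Q cells and 2.37, 2.27 and 2.36 in K382R cells. It was lower in every K382Q library, by 0.34 on the log2 scale (exact two-sided permutation p = 0.1, the smallest possible with 3 against 3). With *Gbp2b* and *Gm43302* added to their clusters the difference was -0.38, and with coverage in place of TPM it was -0.27. These sums weigh most on the abundant members, among them *Gbp3* and *Gbp6*, and the reads of *Gbp6* are divided in an uncertain way. The ratio of *Gbp3* to *Gbp6* alone differed by -0.52 on the log2 scale. *Gbp7* on chromosome 3 and *Gbp10* on chromosome 5 had log2 fold changes of -1.19 and -1.20, so the contrast does not hold for every member.

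In the make-up of the family by TPM, the shares of *Gbp3*, *Gbp6* and *Gbp5* did not overlap between the mutants. *Gbp3* made up 27.7% ± 0.638 (SD, n = 3) of the summed TPM of the 10 genes in K382Q cells and 32.2% ± 0.44 (SD, n = 3) in K382R cells. The share of *Gbp6*, whose reads are divided with *Gbp10* and *Gm43302* in an uncertain way, was higher in K382Q cells, at 25.3% ± 1.29 (SD, n = 3), against 20.5% ± 0.379 (SD, n = 3) in K382R cells. *Gbp5* held 1.59% ± 0.354 (SD, n = 3) and 2.82% ± 0.296 (SD, n = 3). The shares of the other 7 members overlapped between the mutants. In the order of levels, *Gbp3*, *Gbp6* and *Gbp2* led in K382Q cells, at means of 29, 26.5 and 24.3 TPM, and neighbors in this order overlapped in their ranges. In K382R cells *Gbp3*, at 79.8 TPM, was clear of *Gbp2* at 56.3 and *Gbp6* at 50.8, whose ranges overlapped. *Gbp7*, *Gbp10*, *Gbp9*, *Gbp5*, *Gbp11*, *Gbp4* and *Gbp8* followed in the same order in both mutants, with overlapping neighbors *Gbp10* and *Gbp9* in K382Q cells and *Gbp11* and *Gbp4* in K382R cells.

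**Figure D3:**
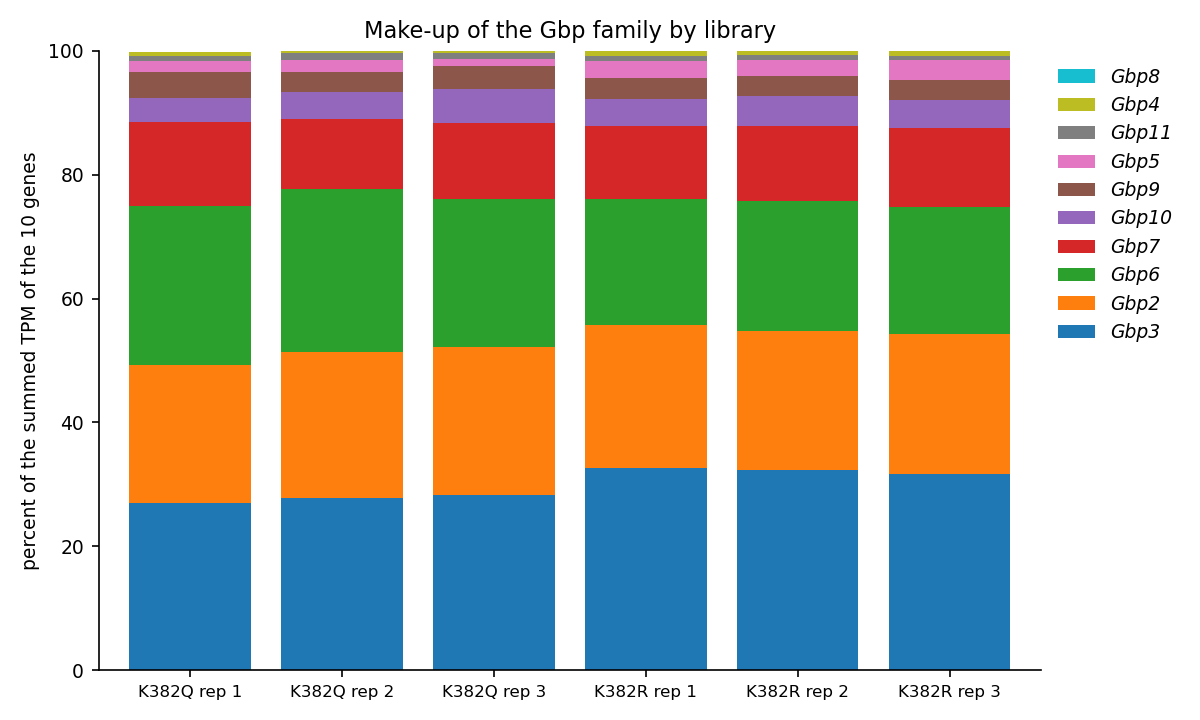
Percent of the summed TPM of the 10 Gbp genes taken by each gene (vertical axis, 0 to 100) in each of the 6 libraries (horizontal axis). *Gbp3* (bottom) takes 27 to 28.3% in the K382Q libraries and 31.7 to 32.6% in the K382R libraries, and *Gbp6* takes 23.9 to 26.3% and 20.2 to 20.9%.

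The deposited coverage, the mean read depth over the bases of a gene, gives a second measure of the same reads. Before any scaling, *Gbp3* was covered at 43.5, 60.1 and 44.1 in K382Q cells and 157, 170 and 118 in K382R cells. *Gbp2* was covered at 55.7, 80 and 59 in K382Q cells and 173, 186 and 133 in K382R cells. Coverage was also without overlap between the mutants for the other 7 members tested, as it was in this direction for 29.6% of all genes tested, and the K382R libraries were on the whole deeper. Divided by the aligned length of the library in Gb, the coverage of *Gbp2* was 9.36 to 10.7 in K382Q cells and 20.4 to 22.8 in K382R cells, against 7.31 to 8.01 and 18.2 to 20.9 for *Gbp3*. By coverage, therefore, *Gbp2* stood above *Gbp3* in K382Q cells and overlapped it in K382R cells, whereas by TPM *Gbp3* stood first. In a limma fit of this measure each of the 9 members passed as lower, as did 27.6% of all genes tested. The pseudocount of that fit weighs on *Gbp4* and *Gbp5*, whose coverage was low, at 0.596 to 2.57 and 0.905 to 5.4 reads per base. Without a pseudocount the log2 ratio of the group means of coverage per Gb was -1.90 for *Gbp5*, -1.53 for *Gbp4*, -1.38 for *Gbp3* and -0.85 for *Gbp6*, the smallest of the 9.

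**Figure D4:**
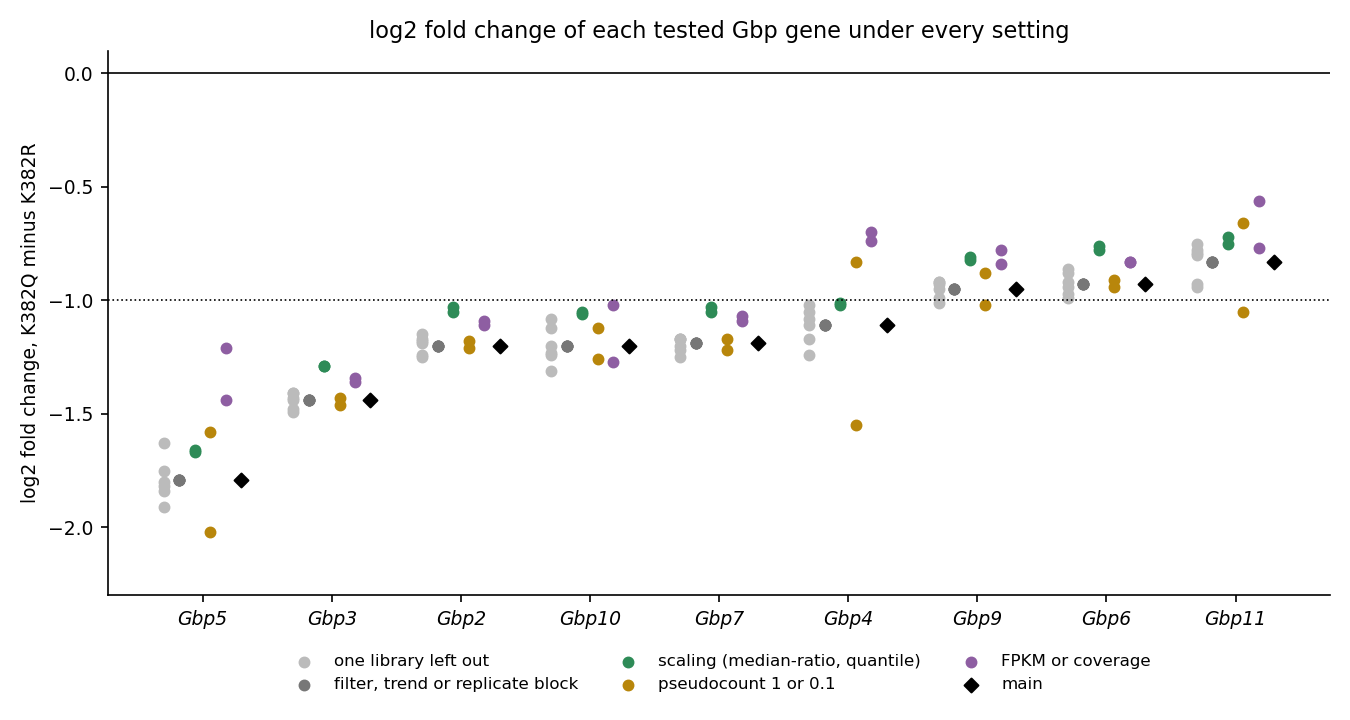
log2 fold change (K382Q minus K382R, vertical axis) of the 9 Gbp genes tested, as reported (black diamonds) and under each of 16 alternatives (points, colored by kind). Every point lies below 0, and the points of *Gbp2*, *Gbp3*, *Gbp5*, *Gbp7* and *Gbp10* all lie below the dotted line of a 2-fold decrease.

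Of 31 other genes annotated between the members or within 300 kb of them, 10 were tested, 6 were lower, 1 was higher and none was a DEG. For comparison, 36.9% of all genes tested were lower, 11.1% were higher and 2.61% were lower DEGs. The 6 lower genes included *Gm43302* and *Gbp2b*, described above, which had the largest decreases among them. Beside the chromosome 3 cluster, *Pdlim5*, which encodes a scaffold of the cytoskeleton, had a log2 fold change of -0.25 (adjusted p = 0.0224) on one side. On the other side *Kyat3*, a kynurenine aminotransferase, had -0.44 (adjusted p = 0.0187) and *Gtf2b*, the general transcription factor TFIIB, had -0.35 (adjusted p = 0.000468). Beside the chromosome 5 cluster, *Zfp951* had -0.06 (adjusted p = 0.76) and *Gm8258*, at a TPM of 0.27 to 1.07, had 0.66 (adjusted p = 0.0347), with a log2 ratio of means of 1.20 without a pseudocount and a DEG call in 1 of the 16 alternatives. On its other side *Lrrc8b* and *Lrrc8c*, subunits of volume-regulated anion channels, had 0.16 (adjusted p = 0.051) and -0.49 (adjusted p = 0.0185). The counts were 3 lower and 2 higher after median-ratio scaling, under which 20.4% of all genes tested were lower and 19.9% were higher. They were 3 lower and 1 higher without K382Q replicate 2, and 6 lower and 0 higher without K382Q replicate 1.

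Most regulators of the IFN response were lower, and most by less than the members. Of 23 genes listed, 21 were tested, all 21 had a negative log2 fold change, 18 passed as lower and 2 were lower DEGs, against 36.9% and 2.61% of all genes tested, with a median of -0.36. *Irf7*, a factor that amplifies type I IFN production, fell most, at -1.94 ± 0.0614 (SE, adjusted p = 6.92e-07). *Usp18*, an inhibitor of type I IFN receptor signaling that is itself induced by IFN, fell by 1.56 ± 0.0625 on the log2 scale (SE, adjusted p = 1.86e-06). *Socs3*, an inhibitor of JAK signaling, *Nlrc5*, the transactivator of MHC class I genes, and *Stat2* had log2 fold changes of -0.94, -0.92 and -0.87. Among those that did not pass, *Ptpn2*, *Irf3* and *Tyk2* had -0.11, -0.10 and -0.11. *Irf1*, which acts directly on Gbp promoters, was chosen after its values were seen. It had a TPM of 70.3, 73.7 and 72.1 in K382Q cells and 78.4, 79.7 and 78.6 in K382R cells, a change of -0.13 (adjusted p = 0.0118) that was 0.02 after median-ratio scaling. After that scaling 14 of the regulators passed as lower, where 20.4% of all genes did, and the values of *Ptpn2*, *Irf3* and *Tyk2* were between 0.04 and 0.05. The receptor subunits *Ifngr1* and *Ifnar1*, chosen in the same way, had log2 fold changes of -0.33 and -0.40.

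**Figure D5:**
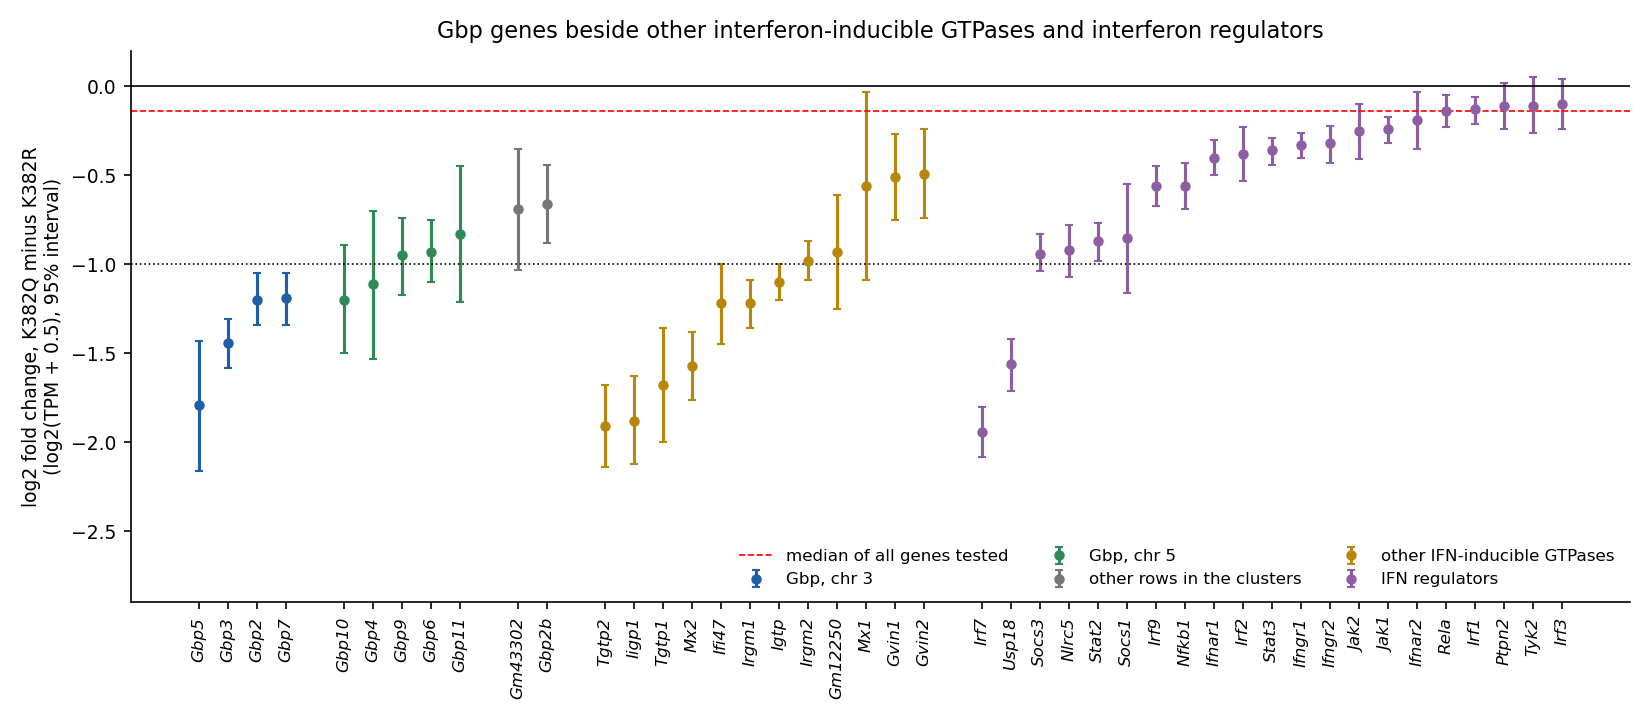
log2 fold change (K382Q minus K382R, vertical axis) with 95% interval for the Gbp members on chromosomes 3 and 5, for *Gm43302* and *Gbp2b*, for other IFN-inducible GTPases and for IFN regulators. The dotted line marks a 2-fold decrease and the dashed line the median of all genes tested (-0.14), and the members lie between -1.79 and -0.83.

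Other IFN-inducible GTPases were mostly lower, with log2 fold changes of -1.91 to -0.49. The list held immunity-related GTPases, which work beside GBPs at pathogen vacuoles, giant GTPases and Mx proteins. Of 18 names listed, 14 were found and 12 were tested. Of these, 11 were lower and 7 were lower DEGs, against 36.9% and 2.61% of all genes tested, with a median log2 fold change of -1.16. *Tgtp2* had a TPM of 1.67, 1.66 and 1.74 in K382Q cells and 7.05, 7.82 and 8.33 in K382R cells, a log2 fold change of -1.91 (adjusted p = 5.63e-06). *Iigp1* had 14.8, 11.7 and 10.9 in K382Q cells and 48.5, 48.2 and 44.1 in K382R cells, a log2 fold change of -1.88 (adjusted p = 7.34e-06). *Tgtp1* and *Tgtp2* are near-identical copies, so their single values are uncertain. The antiviral *Mx2* had -1.57, and *Irgm1*, which keeps effector GTPases off the cell's own membranes, had -1.22. The smallest falls that passed were those of the giant GTPases *Gvin1* and *Gvin2*, at -0.51 (adjusted p = 0.00465) and -0.49 (adjusted p = 0.00696), outside the range of the *Gbp* members. *Mx1* did not pass, at -0.56 (adjusted p = 0.0778) and a TPM of at most 0.813.

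Proteins ending in a CaaX box, as *Gbp2* and *Gbp5* proteins do, are prenylated and then processed, and the list for this held the prenyltransferase subunits, the enzymes that make the lipid donors and the enzymes that process the prenylated protein. Of 8 genes tested, 5 were lower, 2 were higher and none was a DEG, where 36.9% of all genes were lower and 11.1% higher. *Fntb*, the β subunit of farnesyltransferase, and *Fdps*, which makes farnesyl diphosphate, rose by 0.38 and 0.33 on the log2 scale. The processing enzymes *Zmpste24* and *Icmt* and *Pggt1b*, the β subunit of a related prenyltransferase, had -0.38, -0.25 and -0.23, and *Fnta* had -0.12 (adjusted p = 0.0996). After median-ratio scaling 1 of the 8 was lower and 2 were higher, where 20.4% of all genes were lower and 19.9% higher. In the ATG8 conjugation system, which guides IFN-inducible GTPases to vacuoles, 6 of 10 genes tested were lower and 2 were higher, and 1 was lower and 2 were higher after median-ratio scaling, against the same shares of all genes. *Map1lc3a* rose by 0.50, while *Atg7*, *Gabarapl1*, *Atg3* and *Atg5* had -0.32, -0.31, -0.23 and -0.21. *Map1lc3b* and *Atg12* did not pass, at -0.10 and -0.09.

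Of the inflammasome and pyroptosis genes, on which GBPs act after infection, 9 of 14 were tested, 5 were lower and 1 was a lower DEG, against 36.9% and 2.61% of all genes tested. *Sting1*, the adaptor of cytosolic DNA sensing, was that DEG, with a log2 fold change of -1.12 (adjusted p = 1.28e-05). Its fold change was -0.97 after median-ratio scaling, short of 2-fold, and it was a DEG in 14 of the 16 alternatives. After that scaling 5 genes of the list were still counted as lower, where 20.4% of all genes tested were lower. *Gsdmd*, the pore-forming protein of pyroptosis, and *Casp4*, which encodes caspase-11, had -0.98 (adjusted p = 2.78e-05) and -0.67 (adjusted p = 0.000335). *Cgas* and *Casp8* had -0.42 and -0.32. *Il18*, *Aim2* and *Naip2* had 0.05, -0.23 and -0.10 and did not pass. *Nlrp3* and *Pycard*, the sensor and adaptor of the inflammasome that *Gbp5* is tied to, did not pass the filter, with a TPM of at most 0.284 and 0.166, and *Il1b* was listed at 0 in every library.

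The genes most like *Gbp3* across the 6 libraries were not from these lists. Among 10643 genes with a mean TPM of at least 5, likeness was the root mean square difference of log2(TPM + 0.5) after the mean of each gene was removed. *Adcy5* (0.0507), an adenylyl cyclase, and *Loxl1* (0.0525), a collagen cross-linking enzyme, came first. *Adgra2* (0.0546), *Sema7a* (0.0677) and *Dbn1* (0.0752) followed. The TPM of *Loxl1* was 43.5 to 46.4 in K382Q cells and 126 to 131 in K382R cells, values that follow from how the gene was chosen.

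The identity of the cells was checked with markers. Adipocyte genes were high, with a TPM of *Fabp4* of 46394 to 50292 in K382Q cells and 37390 to 38541 in K382R cells. Of 11 markers of adipocytes and their precursors, 10 were tested, 8 were lower, 1 (*Fabp4*) was higher and 2 were lower DEGs. Among all genes tested, 36.9% were lower, 11.1% were higher and 2.61% were lower DEGs. *Adipoq*, *Thy1*, *Col1a1*, *Pdgfra* and *Cebpa* had log2 fold changes of -1.28, -1.25, -1.00, -0.88 and -0.81, and *Plin1* had -0.05 (adjusted p = 0.21). Because these are bulk samples, fewer cells of a type and less RNA per cell cannot be told apart in any value given here. Markers of macrophages and leukocytes, the cells in which GBPs are best known, were mostly near 0. Of 11 such genes, 8 were under a TPM of 1 in all libraries, among them 3 (*Adgre1*, *Tyrobp* and *Cd3e*) at 0 and *Ptprc* at no more than 0.0129. The other 3 were *Cd14* at 6.95 to 10.5, *Cd68* at 3.17 to 5.1 and *Fcer1g* at 0 to 1.69. The summed TPM of all 11 was 11.8 to 12.9 in K382Q cells and 13.3 to 16.6 in K382R cells, mostly from *Cd68* and *Cd14*, with log2 fold changes of -0.01 (adjusted p = 0.981) and -0.32 (adjusted p = 0.0203). Of 5 endothelial markers, 4 were under a TPM of 1 and *Pecam1* had 0.15 (adjusted p = 0.449). Total *Pparg* transcript, from the vector and the cells' own gene together, was 1333, 1164 and 1104 TPM in K382Q cells and 1590, 1632 and 1612 TPM in K382R cells, a log2 fold change of -0.43 (adjusted p = 0.000977). The change was -0.28 after median-ratio scaling and -0.33 with coverage per Gb. The mutants thus did not have equal levels of this transcript, and the part of this in the values of the family was not tested.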

How the data were processed

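RNA was sequenced as pairs of 150-bp reads from 3 libraries each of K382Q and K382R cells. The authors trimmed the reads with TrimGalore 0.6.7, aligned them to GRCm39 with HISAT2 2.2.1, sorted them with SAMtools 1.14 and ran StringTie 2.2.1 for gene values. The annotation release is not given in the sources used here, and the library kit does not mark strand. The deposited coverage is a read depth per base without normalization. The deposited FPKM equals this scaled to the aligned bases of the library only for genes with 1 quantified transcript. For other genes coverage and FPKM are not in this fixed ratio, so their fold changes and order can differ. The deposited TPM sums to 1 fixed total per library and so shows shares. Depth was read as the most frequent ratio of coverage to FPKM, and intervals from counts were not possible. Up to 5 repeated gene IDs per library were summed. The authors' DESeq2 counts were not analysed here.

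limma 3.58.1 in R 4.3.3, with an intensity trend, compared K382Q with K382R on log2(TPM + 0.5). Sums and ratios were compared by an exact permutation test over libraries. Other steps used Python 3.11.15, pandas 2.3.3, numpy 2.4.6 and matplotlib 3.10.9. Shared stretches were counted in GENCODE vM39 transcripts, and promoters came from RefSeq. Protein sequences were not used here, and the counts of regulators leave out 1 gene of the list as drawn up, whose result is not reported here. In no pair of libraries were more than 0.0583% of values identical.

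The members and the gene lists were chosen with earlier results of these data known. The genes named are the members, other Gbp entries, from each list up to 5 with the largest change that passed and up to 3 with the highest TPM that did not, the nearest 2 tested genes on each side of a cluster, the 5 genes most like *Gbp3*, and *Pparg*. *Irf1*, *Ifngr1*, *Ifnar1*, *Gvin1*, *Gvin2*, *Fabp4*, *Nlrp3*, *Pycard*, *Il1b* and the leukocyte markers at or near 0 fall outside this rule and were chosen after their values were seen. The settings varied were the pseudocount (1 or 0.1), no filter, a TPM of at least 1, FPKM, median-ratio scaling, quantile normalization, no trend, a replicate block and each library left out. Coverage per Gb (pseudocount 0.2), wider sums and the scaling of the last 3 lists were added after seeing the data.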

Additional observations from a re-analysis of the deposited data

How the results depend on the processing

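Over 16 alternatives the 9 members tested remained lower with an adjusted p under 0.05 in limma in all 144 refitted values. The number past 2-fold was 6 in the limma fit used here, 5 without *Gbp4* at a pseudocount of 1, with FPKM or with coverage, 8 with *Gbp9* and *Gbp11* at a pseudocount of 0.1, and 6 to 7 with 1 library left out, *Gbp9* being added without K382Q replicate 1. DEGs among all genes numbered 599 in that fit (32.7% of them higher), 379 with FPKM, 889 with a pseudocount of 0.1 and 583 with median-ratio scaling (49.2% higher). FPKM, median-ratio scaling, quantile normalization and coverage moved the chromosome 3 sum from -1.34 to -1.25, -1.19, -1.18 and -1.22, and the first 3 moved the chromosome 5 sum from -1.00 to -0.91, -0.85 and -0.84. The difference between the clusters was -0.34 in the main setting (a factor common to a library cancels in it), -0.27 with coverage and -0.38 with *Gbp2b* and *Gm43302* added. Among genes beside the clusters, 3 were lower and 2 higher with median-ratio scaling, 2 were higher with quantile normalization, and 3 to 6 were lower and 0 to 1 higher with 1 library left out, the fewest lower (3) without K382Q replicate 2. With median-ratio scaling or quantile normalization, 1 CaaX enzyme and 1 ATG8 gene were lower. Beyond the shift of the median of all genes that median-ratio scaling removes, the cause was not tested.

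Over all genes tested, same-numbered libraries of the mutants did not deviate together (correlations of -0.0177, 0.0507 and 0.0223), and the main fit did not use the number. In the family, however, replicate 2 had the highest sums in both mutants. These were 71.2 TPM (K382Q) and 180 TPM (K382R) for chromosome 3, and 39.2 and 79.1 TPM for chromosome 5. The labels do not say whether libraries of the same number were handled together. With the replicate block, 604 genes and 6 members were DEGs, the members remained lower, and 0 genes beside the clusters were higher. Levels near the filter (*Gbp4*, *Gbp11*) limit what can be said of their fold changes, and without counts the error is that of 3 libraries per mutant.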
